A study of Mus musculus with 4 samples.

Results

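Imprinted genes other than the Igf2r and Grb10 regions were followed through the 5-hydroxymethylcytosine (5hmC) changes that accompany loss of LSH in mouse embryonic stem (ES) cells and mouse embryonic fibroblasts (MEFs). The set and the gene lists below were chosen by name, with earlier results of these data known. The set holds 35 genes, of which 33 have a model in the mm9 annotation used, among 26031 genes in all. Peg13 has no entry there. Kcnq1ot1 has none either and is described only at its start, which was located by matching its RefSeq promoter exactly to the genome. There were 4 libraries, 1 each from wild-type ES cells, LSH knockout ES cells, wild-type MEFs and LSH knockout MEFs. ES cells are pluripotent cells of the early embryo, grown here with LIF, and MEFs are cultured connective tissue cells of the later embryo. How the knockout was made, the age of the embryos and the number of lines are not stated in the labels. Fragments with 5hmC were labelled with an azide-bearing glucose, biotinylated, captured on streptavidin and sequenced. The data are 2 lists of 5 kb bins called differential between knockout and wild type, 1 per cell type. They give positions only, so a listed bin is altered in an unknown direction, and neither the level nor the read depth is known. With 1 library per group there is no replicate error, and every count below is a description without a test.

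Imprinted genes are transcribed mainly or only from the copy inherited from the mother or from the father. The choice is set by CpG-rich control regions that receive DNA methylation in the oocyte or in sperm and keep it on that copy in all later cells. The factor ZFP57 binds the methylated form of the letters TGCCGC in many of these regions and helps to keep them methylated. LSH, the product of Hells, is an SNF2-family chromatin remodeler needed for normal DNA methylation, and TET enzymes oxidise 5-methylcytosine to 5hmC. The genes lie in clusters in which a control region governs several neighbours, so they are grouped here into 16 domains by joining members of a chromosome that lie within 3 Mb of each other.

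A gene was counted when a listed bin overlapped its body or the 5 kb upstream. In ES cells 10 of 33 genes (30.3%) had a listed bin, where 19.8% of all genes did. In MEFs 6 of 33 (18.2%) had a listed bin, where 14.1% of all genes did. Both an ES bin and a MEF bin occurred at 4 genes (Trappc9, Gnas, Peg3 and Sgce), or 12.1%, where 5.9% of all genes had both. Only ES bins occurred at 6 genes (Nespas, Impact, H13, Rasgrf1, Ascl2 and Rtl1) and only MEF bins at 2 (Rian and Plagl1), and 21 genes had none. The genes held 11 distinct ES bins and 7 distinct MEF bins, 18 of the 17559 listed, and none of them was on both lists. Over the genome 411 bins were on both lists, which is 4.8% of those listed in ES cells and 4.57% of those listed in MEFs.

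By domain, 9 of 16 had an ES bin at a member and 6 had a MEF bin. The domains span 1.89 to 2440 kb, and no share over other regions of like size was computed, so these counts have no background. The 5 domains with both were Gnas with Nespas, Sgce with Peg10, Zim1 with Peg3 and Usp29, Dlk1 to Mirg, and Kcnk9 with Trappc9. In all of these the cell types differed in the bin that was listed. The starts of the closest ES and MEF bins lay 5 kb apart at Sgce, 15 kb apart in the Dlk1 to Mirg and Trappc9 domains, 20 kb apart at Peg3 and 35 kb apart at Gnas.

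**Figure D1:**
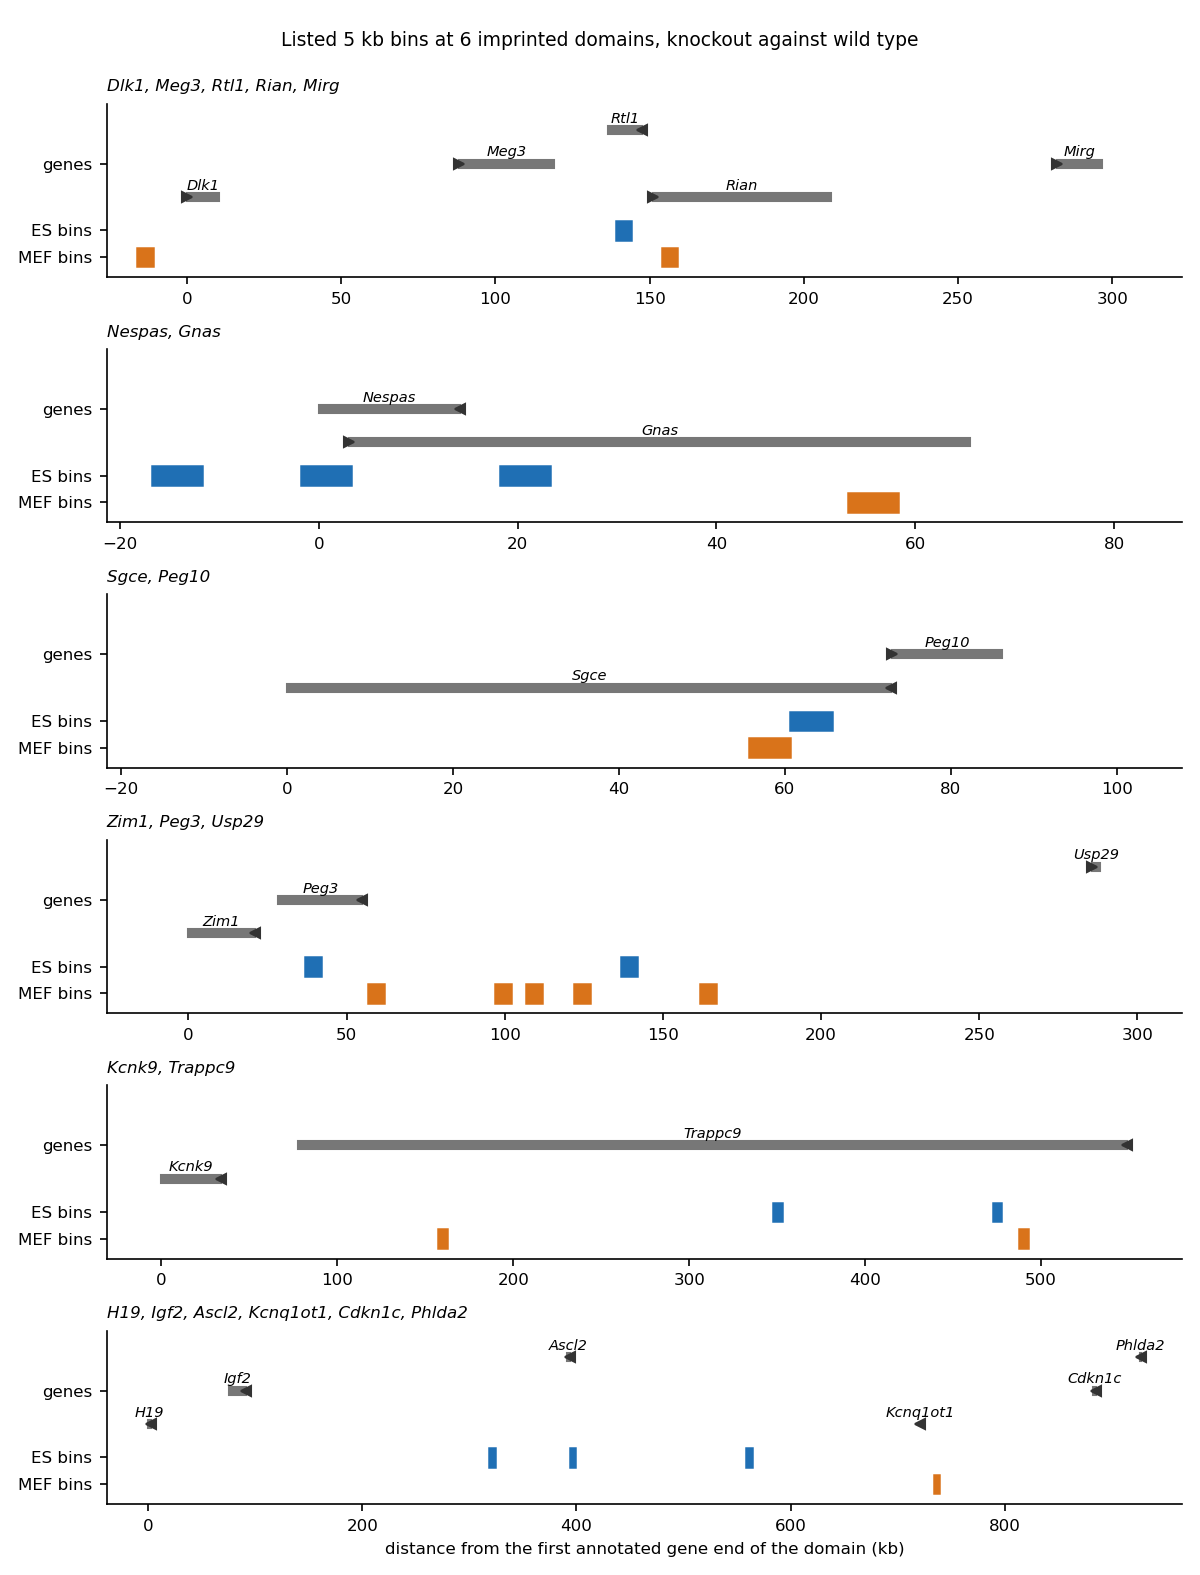
Listed bins at 6 imprinted domains: the x axis is the distance in kb from the first annotated gene end, grey bars are genes with an arrowhead at the start, blue boxes are ES bins and orange boxes are MEF bins, all to scale. ES and MEF bins lie side by side at Sgce and start 15 kb apart at Rtl1 and Rian. No box is shared between the lists, where 4.8% of ES bins and 4.57% of MEF bins are shared over the genome.

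The Dlk1 to Mirg domain of chromosome 12 spans 297 kb. Its paternal copy makes Dlk1, a transmembrane protein related to Notch ligands, and Rtl1, a protein derived from a retrotransposon. Its maternal copy makes the long noncoding RNAs Meg3, Rian and Mirg and a large set of microRNAs, some of them antisense to Rtl1. The ES bin (chromosome 12, 110830001 to 110835000) lay in Rtl1, 3.54 kb downstream of its start, and 3698 of its 5000 bases are exon. It holds 136 CpG, more than 98.7% of all bins, and 2 copies of TGCCGC counted on both strands. The MEF bin (110845001 to 110850000) lay in an intron of Rian, 2.85 kb from its start, with 84 CpG and no TGCCGC. Both bins hold microRNA genes. Of 56 microRNA models in the domain, 5 overlapped the ES bin (Mir127, Mir136, Mir432, Mir434 and, in part, Mir433) and 1 overlapped the MEF bin (Mir341). Each count rests on a single bin, and no share over all microRNA models is given, so the counts do not compare the cell types.

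The mature microRNAs that lie wholly in these bins are shown because the listed DNA encodes them; sequences are from RefSeq and were matched to mm9 on the plus strand, opposite to Rtl1, with the seed (bases 2 to 8) in capitals. The first 7 lines are encoded in the ES bin and the last 2 in the MEF bin.
miR-127-5p: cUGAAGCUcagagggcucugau
miR-127-3p: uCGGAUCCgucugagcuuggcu
miR-136-5p: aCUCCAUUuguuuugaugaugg
miR-136-3p: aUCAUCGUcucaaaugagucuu
miR-432: uCUUGGAGuagaucagugggcag
miR-434-5p: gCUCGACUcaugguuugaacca
miR-434-3p: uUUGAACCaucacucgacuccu
miR-341-5p: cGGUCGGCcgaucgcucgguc
miR-341-3p: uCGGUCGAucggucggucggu

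All of the seeds printed differ from each other. The 120 bases of each bin with the most CpG are printed below, on the plus strand of mm9 with each CpG in capitals. The Rtl1 stretch (chr12:110831892-110832011) has 8 CpG and is coding sequence. The Rian stretch (chr12:110849687-110849806) has 13 CpG and covers the Mir341 hairpin at 110849710 to 110849805.
Rtl1, ES bin: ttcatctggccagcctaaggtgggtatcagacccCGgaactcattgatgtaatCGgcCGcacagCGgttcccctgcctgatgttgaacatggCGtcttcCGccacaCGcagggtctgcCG
Rian, MEF bin: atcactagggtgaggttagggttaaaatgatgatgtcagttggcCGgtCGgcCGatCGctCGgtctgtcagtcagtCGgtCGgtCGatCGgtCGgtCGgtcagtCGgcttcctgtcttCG

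The other members of the domain had no bin of their own. Dlk1 lay 128 kb from the nearest ES bin and 11.0 kb from a MEF bin upstream of it (110675001 to 110680000). Meg3 lay 20.1 kb from the nearest ES bin and 35.1 kb from the nearest MEF bin, and Mirg 82.3 kb and 62.3 kb. Between its outer ends the domain covers 60 bins, of which 1 was on the ES list and 1 on the MEF list (1.67% each). Of all bins with sequence 1.67% and 1.75% were.

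The Gnas domain on chromosome 2 spans 65.5 kb. Of its 14 bins, 2 were on the ES list (14.3%) and 1 on the MEF list (7.14%). The shares of all bins with sequence were 1.67% and 1.75%. Gnas encodes the stimulatory G protein alpha subunit and further proteins from alternative starts, which differ in the parental copy used. Nespas is a noncoding RNA from the paternal copy that runs antisense to the upstream part of the locus. The first ES bin (174105001 to 174110000) holds the annotated start of Gnas, with 86 CpG, and reaches 3263 bases into the far end of Nespas. The second (174125001 to 174130000) lay 15.2 kb downstream of that start and 4.06 kb upstream of the Nespas start, with 2306 exon bases of Gnas. With 140 CpG it is above 98.8% of all bins, the highest count of the listed bins at these genes, and it holds 5 copies of TGCCGC. A further ES bin (174090001 to 174095000), outside the members, lay upstream over Mir296 and Mir298. The only MEF bin of the domain (174160001 to 174165000) lay 50.2 kb downstream of the Gnas start over 509 exon bases, with 92 CpG and no TGCCGC. RefSeq gives further Gnas starts at 174153250, 174153269 and 174155507, in bins with 229 and 216 CpG, and these bins were on neither list.

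The DNA of the ES bins is shown because they cover a promoter and coding sequence under the same gene name. Gnas has several starts, and whether both stretches belong to the same transcript was not examined. The first line is the 250 bases before the Gnas start from RefSeq, matched to mm9 at chr2:174109571-174109820 on the plus strand, with 14 CpG. The second is the stretch of 120 bases with the most CpG in the second bin, chr2:174125420-174125539 on the plus strand, coding sequence with 14 CpG. Capitals mark CpG.
Gnas, before the start: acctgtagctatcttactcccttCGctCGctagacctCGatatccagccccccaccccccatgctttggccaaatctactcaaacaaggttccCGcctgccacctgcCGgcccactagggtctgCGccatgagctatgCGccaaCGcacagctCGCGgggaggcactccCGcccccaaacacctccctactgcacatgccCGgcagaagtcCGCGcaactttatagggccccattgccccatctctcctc
Gnas, second ES bin: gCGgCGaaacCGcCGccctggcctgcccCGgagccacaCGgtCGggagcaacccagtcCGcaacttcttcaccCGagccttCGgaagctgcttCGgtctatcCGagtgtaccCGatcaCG

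At Sgce, which encodes epsilon-sarcoglycan and shares a promoter region with the retrotransposon-derived gene Peg10, the bins of the cell types touch. The ES bin (chromosome 6, 4685001 to 4690000) lay 7.2 kb into Sgce and has 75 CpG, and the MEF bin (4680001 to 4685000) lay 12.2 kb in and has 84 CpG. Each covers an exon of Sgce, by 95 and 121 bases, and neither holds TGCCGC. The start bin common to Sgce and Peg10 has 202 CpG and was on neither list. Peg10 lay 7.31 kb from the ES bin and 12.3 kb from the MEF bin.

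At Peg3, a zinc finger gene of the paternal copy on chromosome 7, the bins of the cell types lay on either side of the start. The ES bin (6665001 to 6670000) was in the body, 13.1 kb downstream of the start, with 354 exon bases. The MEF bin (6685001 to 6690000) was 1.87 kb upstream, under no gene model, and 1.71 kb from the RefSeq start of Usp29, which faces Peg3. Both have CpG counts near the median of all bins (35), 34 and 39, and no TGCCGC. The start bin of Peg3 between them has 157 CpG and 8 copies of TGCCGC and was on neither list. Usp29, related to ubiquitin proteases, has in the annotation only a short model at 6913871 to 6916480. It is counted by this model, and so as a gene without a bin, and a count from its RefSeq start was not made. Between its RefSeq start (6683294) and this model lay 1 ES bin (6765001 to 6770000) and 5 MEF bins, the bin just described and those starting at 6725001, 6735001, 6750001 and 6790001. Counted between its outer ends this domain had 5 MEF bins among 59 (8.47%), where 1.75% of all bins with sequence were on the MEF list, and 2 ES bins (3.39%), where 1.67% were on the ES list. Zim1, a maternally expressed zinc finger gene, lay 15.8 kb from the nearest ES bin and 35.8 kb from the nearest MEF bin.

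The paired bins at Sgce and Peg3 are shown by their 120 bases with the most CpG, on the plus strand of mm9 with CpG in capitals. None of these stretches covers an exon in the annotation. They lie at chr6:4686023-4686142 (8 CpG, next to a run of alternating g and t), chr6:4680609-4680728 (7 CpG), chr7:6665501-6665620 (5 CpG) and chr7:6686422-6686541 (4 CpG).
Sgce, ES bin: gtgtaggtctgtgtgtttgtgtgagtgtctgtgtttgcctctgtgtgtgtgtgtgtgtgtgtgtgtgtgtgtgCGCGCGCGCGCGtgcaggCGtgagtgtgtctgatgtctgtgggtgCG
Sgce, MEF bin: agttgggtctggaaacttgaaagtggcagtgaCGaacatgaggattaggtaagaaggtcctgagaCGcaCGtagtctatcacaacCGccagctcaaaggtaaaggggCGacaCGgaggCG
Peg3, ES bin: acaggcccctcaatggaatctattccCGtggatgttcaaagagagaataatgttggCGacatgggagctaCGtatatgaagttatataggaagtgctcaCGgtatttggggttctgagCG
Peg3, MEF bin: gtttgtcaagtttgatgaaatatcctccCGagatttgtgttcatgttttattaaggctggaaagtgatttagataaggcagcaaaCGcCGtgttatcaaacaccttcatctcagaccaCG

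The distal domain of chromosome 7 holds 6 members in 927 kb and had a listed bin at 1 of them. Ascl2, a helix-loop-helix transcription factor of the trophoblast, had an ES bin over its start (150155001 to 150160000, 66 CpG), and lay 340 kb from the nearest MEF bin. Ascl2 and Gnas were the members whose annotated start lay in a listed bin, in both cases on the ES list. The 250 bases before the Ascl2 start lie at chr7:150155170-150155419 and are printed on the minus strand, the strand of the gene, with their 19 CpG in capitals. The Ascl2 promoter does not hold TGCCGC on either strand, which 11.6% of RefSeq promoters (250 bases before to 50 after the start) do.
Ascl2, before the start: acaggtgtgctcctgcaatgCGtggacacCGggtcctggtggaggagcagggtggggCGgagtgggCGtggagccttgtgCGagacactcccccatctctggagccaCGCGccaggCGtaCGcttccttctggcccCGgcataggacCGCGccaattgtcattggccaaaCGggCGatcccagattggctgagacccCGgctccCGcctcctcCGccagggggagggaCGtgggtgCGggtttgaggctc

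H19, the maternal noncoding RNA, lay 316 kb from the nearest ES bin and 41.4 kb from the nearest MEF bin. Igf2, the growth factor gene that shares its enhancers, lay 227 kb and 117 kb away. The start of Kcnq1ot1, a paternal antisense RNA inside Kcnq1, lay 157 kb from an ES bin and 12.5 kb from a MEF bin. Both of those bins (150320001 to 150325000 and 150495001 to 150500000) lie in Kcnq1. Cdkn1c, which encodes the cell cycle inhibitor p57, lay 319 kb and 144 kb from the nearest ES and MEF bins, and Phlda2, a placental growth regulator, 362 kb and 187 kb. In all, 3 of the 186 bins of the domain were on the ES list (1.61%) and 1 on the MEF list (0.538%). The shares of all bins with sequence were 1.67% and 1.75%.

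Trappc9 on chromosome 15 had 2 bins on each list, in a body of 472 kb that covers 96 bins with the 5 kb upstream. Gnas and Nespas also had 2 ES bins each, and no other member had 2 MEF bins. Trappc9 encodes a subunit of a vesicle tethering complex. Its ES bins began at 72690001 and 72815001, both in introns, 197 kb and 71.6 kb from the start, with 75 and 69 CpG. Its MEF bins began at 72500001, in an intron 387 kb from the start with 65 CpG, and at 72830001, over 144 exon bases 56.6 kb from the start with 59 CpG. Kcnk9, the potassium channel gene of the same domain, lay 313 kb from the nearest ES bin and 123 kb from the nearest MEF bin. Of the 111 bins from Kcnk9 to Trappc9, 1.8% were on each list, near the 1.67% (ES) and 1.75% (MEF) of all bins with sequence. Peg13 is not analysed here.

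In 4 domains the members had an ES bin and no MEF bin. H13, the signal peptide peptidase gene, had a bin over an exon 4.8 kb downstream of its start (chromosome 2, 152500001 to 152505000, 76 CpG, 2 copies of TGCCGC). Mcts2, the paternally expressed retrogene inside H13, lay 7.88 kb from that bin. Rasgrf1, a Ras exchange factor gene, had a bin over 110 exon bases 10.4 kb from its start (chromosome 9, 89815001 to 89820000, 56 CpG). Impact, a regulator of the amino acid response, had a bin 4.24 kb from its start (chromosome 18, 13135001 to 13140000, 40 CpG). The fourth domain was that of Ascl2. The domain of Plagl1, a zinc finger gene expressed from the paternal copy, had a MEF bin and no ES bin. This MEF bin lay in an intron 9.5 kb from the start (chromosome 10, 12820001 to 12825000, 49 CpG).

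The 6 domains without a bin at any member were those of Nnat, Mest, Nap1l5, Inpp5f, Zrsr1 and the cluster of Snrpn, Ndn, Magel2 and Mkrn3. The cluster is the mouse counterpart of the Prader-Willi region and spans 2440 kb with 489 bins. None of these bins was on the ES list and 1 (68320001 to 68325000, in A230006K03Rik) was on the MEF list, 0.204%. Its bins are poor in CpG, with a median of 19 where all bins have a median of 35. Of all bins with 0 to 24 CpG, 0.0607% were on the ES list and 0.25% on the MEF list. The bins of the cluster were not split by CpG count, and a link between CpG count and its few listed bins was not tested. Snrpn, which encodes a splicing protein, lay 3610 kb from the nearest ES bin, and 2.14% of all genes lay farther from one. Ndn, Magel2 and Mkrn3 lay 1400 kb, 1370 kb and 1330 kb away. From the nearest MEF bin the 4 genes lay 1030 to 1240 kb away, and 6.31% to 7.98% of genes lay farther. These distances are from the annotated models. RefSeq also gives a Snrpn start at 67595063, outside its annotated model, which lay 725 kb from a MEF bin and 3300 kb from an ES bin.

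The other 5 domains hold a single gene each. Nap1l5, a nucleosome assembly protein gene inside Herc3, was 0.228 kb past the edge of a MEF bin in Herc3 (chromosome 6, 58850001 to 58855000) and 2020 kb from the nearest ES bin. Mest, which encodes a protein of the hydrolase fold family, lay 8.55 kb from an ES bin and 18.5 kb from a MEF bin, both upstream of it. Inpp5f, an inositol phosphatase gene, lay 39.8 kb from an ES bin and 200 kb from a MEF bin. Nnat, the neuronatin gene, lay 85.8 kb and 197 kb away, and Zrsr1, a splicing factor gene inside Commd1, 43.5 kb and 528 kb away.

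**Figure D2:**
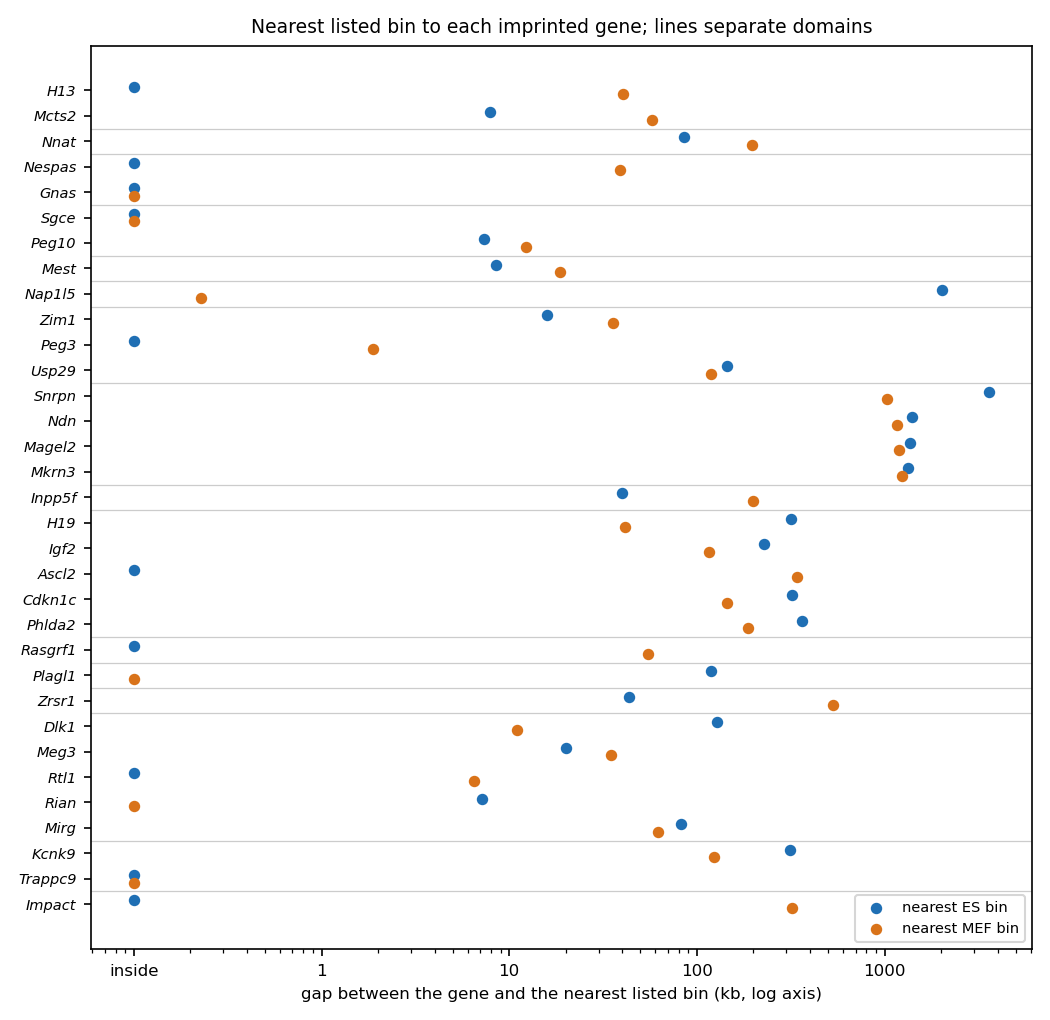
Gap in kb between each of the 33 annotated genes and the nearest listed bin on a logarithmic axis, with ES in blue and MEF in orange; a point at the mark "inside" means that a listed bin overlaps the gene body. Genes are in order of chromosome and thin lines separate domains. By their annotated models Snrpn, Ndn, Magel2 and Mkrn3 lie 1030 kb or more from every listed bin. Nap1l5 lies 0.228 kb from a MEF bin and 2020 kb from an ES bin.

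The starts of imprinted genes lay mostly outside the listed bins, and so did the starts of all genes. The 33 genes have 32 distinct start bins, of which 2 were on the ES list (6.25%), where 3.21% of the start bins of all genes were, and none was on the MEF list, where 2.41% were. The start bins of the imprinted genes hold a median of 113.5 CpG (range 25 to 324), and those of all genes 82. None of the 18 with 100 or more CpG was on either list, where 3.61% of such start bins of all genes were on the ES list and 2.8% on the MEF list. A share of that size is not detectable with 18 bins. The 37 starts that RefSeq gives for 25 of the genes were also examined, since the annotation places the starts of Snrpn and Mest upstream of some of their promoters. Of these, 2 lay in ES bins (Gnas and Ascl2) and none in MEF bins.

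A list of 14 members whose promoter is known to carry a germline methylation mark was used, and other members may carry one. The list holds Peg3, Snrpn, Nespas, Mest, Nap1l5, Zrsr1, Nnat, Peg10, Sgce, Plagl1, Mcts2, Impact, Kcnq1ot1 and Peg13. All but the last 2 are annotated, so 12 of 14 were counted, in 11 start bins. They hold a median of 141 CpG. None of the 11 was listed, where 3.21% of the start bins of all genes were on the ES list and 2.41% on the MEF list, and shares of that size are not detectable with 11 bins. The letters TGCCGC occurred in 9 of them (81.8%), where 51.3% of the start bins of all genes and 23.8% of all bins hold them. The bins without them are those of Snrpn and Mest, whose annotated starts lie upstream of some of their RefSeq promoters. All values for the 11 bins rest on annotated starts, which need not be the marked promoters. On the ES list the next bin touched the start bin at Nespas and Impact, and on the MEF list it did so at Peg3 and Nap1l5. The nearest ES bin was a median of 3 bins away and within 4 bins (20 kb) at 6 of 11, and the nearest MEF bin a median of 8 bins away and within 20 kb at 5. For all 32 start bins of members the medians were 11.5 and 13 bins, and 13 (40.6%) and 8 (25%) were within 20 kb. For the start bins of all genes the medians were 15 and 25 bins, and 22.7% were within 20 kb of an ES bin and 15.4% of a MEF bin. Members of a domain can have the same nearest bin, so these counts are not independent. For Mest, RefSeq also gives a start at 30688050, in a bin with 185 CpG and 12 copies of TGCCGC. This start lay 23.1 kb from an ES bin and 33.0 kb from a MEF bin, whereas the annotated start of Mest counts as within 20 kb on both lists. For Snrpn, RefSeq also gives a start at 67150085, in a bin with 2 copies of TGCCGC.

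**Figure D3:**
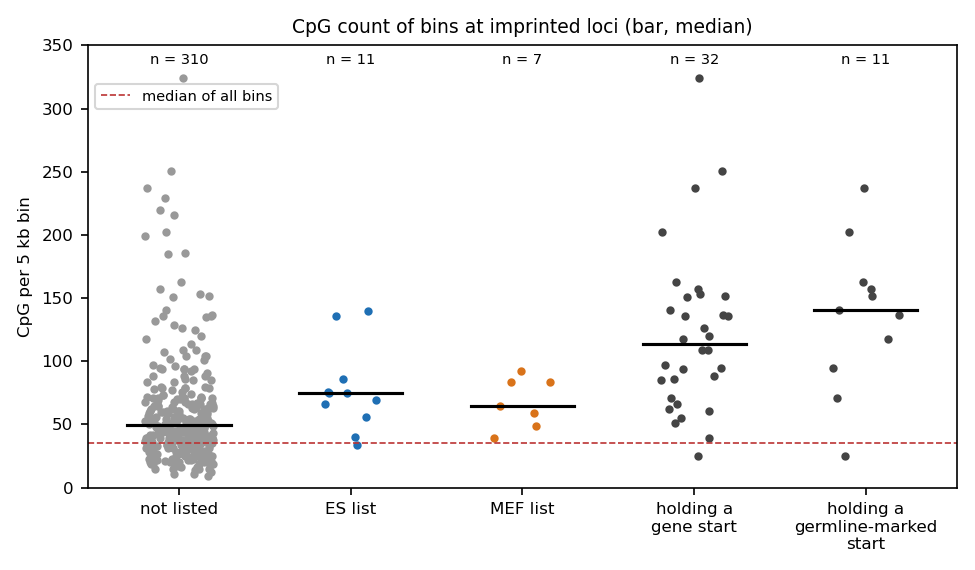
CpG count per 5 kb bin at the imprinted loci, each point a bin and each bar a median: 310 bins on neither list, 11 ES bins, 7 MEF bins, the 32 bins that hold an annotated start and the 11 of these at germline-marked genes; start bins appear among the first 3 columns too. The dashed line is the median of all bins, 35. Listed bins have medians of 75 and 65, below those of the start bins, 113.5 and 141.

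By position, 2 ES bins held a start, 7 covered an exon farther in, 2 lay in introns and none lay upstream only. Of the MEF bins none held a start, 3 covered an exon, 3 lay in introns and 1 lay upstream. The split by part was not made for all listed bins, so these counts have no background. Listed bins were richer in CpG than the unlisted bins of the same loci, with a median of 75 (range 34 to 140) in ES and 65 (range 39 to 92) in MEF against 49.5. All ES bins of the genome have a median of 63 and all MEF bins 55. TGCCGC occurred in 6 of 11 ES bins (54.5%) and 3 of 7 MEF bins (42.9%), and in 36.8% of unlisted bins at the loci, 43.2% of all ES bins and 35.7% of all MEF bins.

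Because CpG-rich bins are listed more often, the loci were also set beside bins of like CpG count. The 33 loci with their upstream 5 kb cover 328 bins, of which 3.35% [1.69% to 5.92%] were on the ES list and 2.13% [0.862% to 4.35%] on the MEF list. Of all bins 1.67% and 1.75% were. The unlisted bins at the loci are richer in CpG than bins in general, with a median of 49.5 against 35. Brackets give exact 95% binomial intervals, which cover counting over bins and not the error of 5hmC; neighbouring bins are not independent, and the intervals are no test. With 75 to 99 CpG, 4 of 33 bins at the loci were on the ES list (12.1% [3.4% to 28.2%]), where 6.4% of all such bins were. In the same class 3 of 33 were on the MEF list (9.09% [1.92% to 24.3%]), where 4.13% were. With 50 to 74 CpG the shares at the loci were 3.03% and 2.02%, where all bins gave 4.03% and 3.94%. With 25 to 49 CpG both shares at the loci were 1.61%, where all bins gave 0.845% and 1.36%. With 0 to 24 CpG none of 35 bins at the loci was on either list, where all bins gave 0.0607% and 0.25%. With 100 or more CpG, 2 of 37 bins were on the ES list (5.41%, all bins 4.4%) and 0 of 37 on the MEF list, which allows up to 9.49% (all bins 2.71%). The intervals at the loci are wide because each class holds few listed bins, at most 4.

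**Figure D4:**
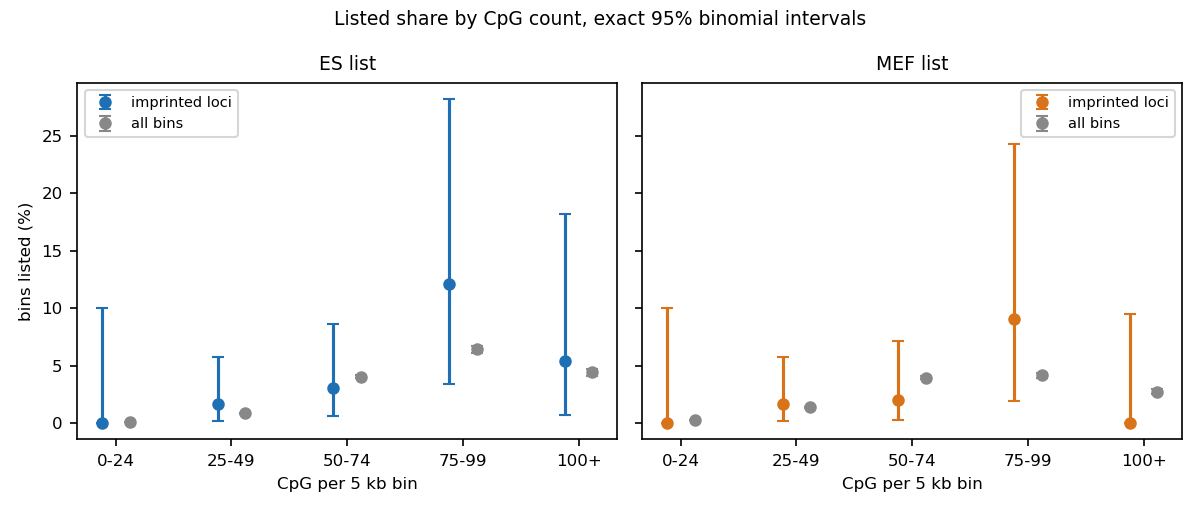
Percent of 5 kb bins on the ES list (left) and MEF list (right) by CpG count of the bin, at the imprinted loci (coloured, 328 bins) and over all bins (grey, 511186 bins), with exact 95% binomial intervals. At 75 to 99 CpG the points at the loci are 12.1% and 9.09%, each resting on few bins (4 and 3).

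Longer genes held a listed bin more often over the whole annotation. Members up to 10 kb long had an ES bin in 1 of 12 cases (Ascl2) and never a MEF bin, where 8.74% and 5.35% of all genes of that length had them. Usp29 is counted here by its short annotated model. Of 14 members of 10 to 50 kb, 5 had an ES bin and 2 a MEF bin, where all genes gave 21.1% and 12.5%. Of 7 longer members, 4 had an ES bin and 4 a MEF bin, where all genes gave 41.5% and 36.1%. Members with a bin had a median length of 40.1 kb and those without 4.66 kb. By the parental copy in use, of 20 annotated paternally expressed genes 6 had an ES bin (30.0%) and 3 a MEF bin (15.0%). Of 11 maternally expressed genes 3 had an ES bin (27.3%) and 2 a MEF bin (18.2%), and the shares over all genes were 19.8% and 14.1%. Of the remaining pair, whose parental expression depends on isoform or tissue, Gnas had both ES and MEF bins and Inpp5f had none.

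Neighbours of the members in the same domains were listed from general knowledge of these clusters. Of 27 found in the annotation, 8 had an ES bin (29.6%) and 6 a MEF bin (22.2%), where 19.8% and 14.1% of all genes did. The neighbours are long, with a median of 38.4 kb. Those with both an ES bin and a MEF bin were Kcnq1, a potassium channel gene, Ppp1r9a and Asb4 beside Peg10, and Phactr2 beside Plagl1. Asb4 had the same bin on both lists (chromosome 6, 5360001), and Phactr2 had 11 MEF bins and 1 ES bin. Dio3, which encodes the thyroid hormone inactivating deiodinase at the end of the Dlk1 cluster, had its start bin on the ES list (chromosome 12, 111515001). Commd1, Eif2c2 and Th, the tyrosine hydroxylase gene, had ES bins only, and Herc3 and Atp10a MEF bins only.

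Of 11 genes for factors that set or keep imprints, 6 had an ES bin (54.5%) and 1 a MEF bin (9.09%), where 19.8% and 14.1% of all genes did. These genes have a median length of 21.7 kb, and all genes 13.6 kb. The ES bins lay at Dnmt1, the maintenance methyltransferase gene, at Dnmt3a and Dnmt3l, which act in germline methylation, at Trim28, the partner of ZFP57, at Ctcf, the insulator factor gene, and at Dppa3, whose product protects imprints in the zygote. The Dppa3 bin holds its start (chromosome 6, 122575001). Dnmt3a had 2 ES bins (chromosome 12, 3815001 and 3865001) and the single MEF bin (3835001). Zfp57, Zfp445, Ctcfl, Uhrf1 and Setdb1 had none.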

How the data were processed

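5hmC-bearing DNA of 1 library per group was captured and sequenced, and reads were handled on mm9 with BWA and SAMtools 1.3.1, per the submitters' processing notes, which give no roles. The calling method, its threshold and any input library: not given in the sources used here. What the authors deposited is 2 lists of chromosome, start, end and running number of differential 5 kb bins (8557 in ES, 9002 in MEF), which give no level, fold, direction or p-value. The labels do not say whether the libraries came from separate cultures.

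Positions are printed 1-based. Chromosomes 1 to 19 and X were used (8545 ES and 8972 MEF bins). Loci came from GENCODE M1 on NCBIM37, the assembly of mm9, and 33 of 35 members were found. RefSeq promoters and microRNAs (assembly GRCm38.p6) were placed by exact match to NCBIM37. CpG and TGCCGC, on both strands, were counted in 511186 bins with at most 50% undetermined bases, which left out 1 listed MEF bin. Overlap of a bin with the body or 5 kb upstream was tested on simulated data, with no errors. Every member was named, with all its bins or its nearest one, and so was every neighbour or factor gene with a bin. The members and lists were chosen with earlier results of these data known. No test was made. Alternative windows, overlap rules and domain distances were tried. Python 3.11.15, numpy 2.4.6, pandas 2.3.3, scipy 1.17.1 and matplotlib 3.10.9 were used.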

Additional observations from a re-analysis of the deposited data

How the results depend on the processing

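Of 79 values recomputed with other windows, overlap rules, gene models and domain distances, 77 lay within 1.5 times the reported count or within the interval of the reported share. The exceptions came from counting bins within 20 kb on both sides of a gene. That window gave 11 genes with a MEF bin and 8 with both an ES bin and a MEF bin. With the gene body alone, Peg3 lost its MEF bin and 5 genes had one. Joining members within 500 kb or 1 Mb left 7 domains without a bin, and counting all bins between the outer ends of a domain left 5. Without Trappc9 the listed shares of bins were 3.88% in ES and 2.16% in MEF. Placing Kcnq1ot1 at its matched start, an alternative chosen after seeing the data, added a gene without a bin (22). No bin at the members was on both lists under any window tried, where 4.8% of ES bins and 4.57% of MEF bins were over the genome. No paired analysis was possible because each group has 1 library and the lists give positions only. The depth of the libraries is unknown, so an unlisted bin may hold a change too small to be called.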
